A study of Mus musculus with 16 samples.

Results

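The 9 genes described here encode 3 class 4 semaphorins (Sema4a, Sema4b and Sema4d), 3 plexins (Plxna1, Plxnb2 and Plxnd1), the plexin domain protein Plxdc2 and the 2 neuropilins (Nrp1 and Nrp2). They were chosen by name, without a threshold on any measured value, and make up 9 of the 50600 genes in the deposited table of read counts. All 9 passed the filter on low counts. Bulk RNA sequencing covered 16 libraries made from cells sorted by reporter fluorescence, 4 per group, from male mice that were 13 to 14 weeks old. CD11c-eYFP+ cells, here called brain CD11c cells, came from the ischemic (ipsilateral) hemisphere of Tg(Itgax-Venus)1Mnz mice, whose yellow fluorescent reporter is under control of the Itgax promoter. Ischemic microglia were CX3CR1+ cells from the ischemic hemisphere of CX3CR1CreERT2:Rosa26-tdT mice, which carry an inducible Cre recombinase at Cx3cr1 and a tdTomato reporter. Splenic CD11c cells were CD11c-eYFP+ cells from the spleen of Tg(Itgax-Venus)1Mnz mice, and control microglia were CX3CR1+ cells from the brain of control CX3CR1CreERT2:Rosa26-tdT mice. The mouse line therefore differs wherever CD11c cells are set against microglia, and line and cell population cannot be told apart. How long after ischemia cells were sorted, and whether spleen donors were ischemic, was not stated in the sources used here.

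Semaphorins are secreted or membrane-bound guidance proteins, first described for steering growing axons and now known also from immune cells. They signal through plexins, large receptors whose cytoplasmic part acts on small GTPases and so on adhesion and the cytoskeleton. Neuropilins have short cytoplasmic tails and serve as co-receptors, with A-type plexins for class 3 semaphorins and with vascular endothelial growth factor (VEGF) receptors for VEGF. Class 4 semaphorins span the membrane, can be shed, and bind mainly B-type plexins and plexin D1. In the immune system, Sema4a and Sema4d are known as costimulatory ligands of dendritic cells and lymphocytes.

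Levels are CPM, counts per 1e6 counts of a library, scaled by TMM factors, and differences are log2 fold changes ± SE from edgeR's quasi-likelihood F test over 16345 genes, called at a Benjamini-Hochberg adjusted p under 0.05. Depth ran from 31569304 to 48245164 counts per library. The labels do not say that the libraries of a group came from separate animals, so p-values reflect library-to-library spread, which may be technical. Itgax, the gene of CD11c, was at 478 to 954 CPM in brain CD11c cells, 35.2 to 92.0 CPM in ischemic microglia, 347 to 742 CPM in splenic CD11c cells and 26.6 to 34.7 CPM in control microglia. Cx3cr1 was at 1234 to 1402 CPM in brain CD11c cells, 1722 to 2083 CPM in ischemic microglia, 21.2 to 37.5 CPM in splenic CD11c cells and 2848 to 3357 CPM in control microglia. The brain CD11c libraries correlated with each other at r = 0.952 to 0.986 over log2 CPM, against 0.980 to 0.992 in the other groups. Replicates 1 and 2 were the most alike, and replicates 3 and 4 correlated at 0.958. Splenic CD11c libraries held B cell transcripts. The sum of 4 B cell markers (Cd79a, Cd79b, Ms4a1 and Pax5) was 10.6 to 14.9 CPM in brain CD11c cells, 16.9 to 18.3 CPM in ischemic microglia, 1643 to 2176 CPM in splenic CD11c cells and 15.6 to 21.7 CPM in control microglia. None of the 4 was at 0 in any group. Splenic CD11c libraries also held 5 neutrophil markers (S100a8, S100a9, Ly6g, Mmp8 and Camp), summing to 177 to 727 CPM and highest in replicate 4. Their 6 T cell markers (Cd3e, Cd3d, Cd3g, Trac, Lck and Foxp3) summed to 83.1 to 188 CPM. In brain CD11c cells these sums were 5.47 to 26.9 and 0.981 to 8.92 CPM. The part of these cells in the levels given below was not tested.

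Promoters of 7 of the 9 genes were found in the RefSeq table for GRCm38.p6. The first listed start of Sema4a and the start of Plxnd1 are shown because both genes were most abundant in brain CD11c cells, and the first listed start of Plxnb2 because it was most abundant in microglia. Each sequence is the 250 bases before the start, written 5′ to 3′ on the gene's strand, and capitals mark GAGGAA or its reverse complement TTCCTC, the core bound by PU.1, a lineage factor of myeloid cells.
Sema4a, chr3:88461183-88461432, minus strand: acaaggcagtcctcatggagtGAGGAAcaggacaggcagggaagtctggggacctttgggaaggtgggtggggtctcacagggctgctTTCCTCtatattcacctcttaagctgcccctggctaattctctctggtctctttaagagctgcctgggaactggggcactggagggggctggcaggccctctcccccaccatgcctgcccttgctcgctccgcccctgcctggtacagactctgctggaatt
Plxnd1, chr6:115995006-115995255, minus strand: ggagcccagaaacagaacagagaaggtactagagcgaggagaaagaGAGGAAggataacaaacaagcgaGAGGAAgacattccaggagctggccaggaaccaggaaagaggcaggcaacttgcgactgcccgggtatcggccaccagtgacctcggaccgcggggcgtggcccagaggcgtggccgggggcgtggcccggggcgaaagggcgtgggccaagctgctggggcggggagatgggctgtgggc
Plxnb2, chr15:89180789-89181038, minus strand: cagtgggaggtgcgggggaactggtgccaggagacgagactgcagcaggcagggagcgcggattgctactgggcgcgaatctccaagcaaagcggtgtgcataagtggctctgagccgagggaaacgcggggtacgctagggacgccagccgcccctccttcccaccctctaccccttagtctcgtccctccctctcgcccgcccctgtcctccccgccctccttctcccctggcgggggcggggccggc
The core occurred 2 times in the Sema4a window, 2 times in the Plxnd1 window and 0 times in the Plxnb2 window. Sema4b, lowest in brain CD11c cells, held it 1 time in each of its 2 windows, Nrp1 held it 1 time, and it occurred 0 times in the Nrp2 window and in the 3 windows of Sema4d. Of 32817 promoter windows of the same length, 23.3% held it on either strand. The GC box GGGCGG, held by 32.7% of windows on either strand, occurred 1 time in Sema4a, 1 time in Plxnd1 and 4 times in Plxnb2. The AP-1 motif TGANTCA, held by 6.75% of windows, was in none of the 3. Among the other 3 starts of Sema4a, 1 window held the PU.1 core 1 time. These matches describe letters and not bound sites.

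On GRCm38 (GENCODE release M21) the 9 genes lie on 8 chromosomes. Sema4a spans chr3:88435959-88461182 on the minus strand, Sema4b chr7:80186841-80226527 on the plus strand and Sema4d chr13:51685529-51793747 on the minus strand. Plxna1 spans chr6:89316314-89362620, Plxnd1 chr6:115954811-115995005 and Plxnb2 chr15:89155549-89180788, all on the minus strand. Plxdc2 spans chr2:16356304-16755839, Nrp1 chr8:128358604-128503363 and Nrp2 chr1:62703285-62818695, all on the plus strand. Overlapping annotated genes had at most 36 counts in any library (Gm45206 within Sema4b, whose own lowest count was 101).

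Set against each other per kilobase of exon union, the genes ranked differently in each population. Plxnb2 stood first in brain CD11c cells with 96.9 ± 23.6 CPM per kb, in ischemic microglia with 177 ± 6.23 and in control microglia with 156 ± 6.87 (SD, n = 4 libraries each). Sema4d stood first in splenic CD11c cells with 44.1 ± 6.82 CPM per kb, ahead of Plxnb2 with 35.9 ± 3.86. Sema4b was the lowest of the 9 in brain CD11c cells at 0.668 ± 0.24 CPM per kb, and Plxdc2 the lowest in splenic CD11c cells at 0.0924 ± 0.0183. Plxna1 was the lowest in ischemic microglia at 0.875 ± 0.0993 CPM per kb and in control microglia at 1.82 ± 0.351. Divided by the longest transcript instead, Sema4d passed Plxnb2 in brain CD11c cells with 139.6 ± 16.1 against 115 ± 28.1 CPM per kb, while the lowest gene of each population stayed the lowest.

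Sema4a encodes a membrane semaphorin known to bind B-type plexins and plexin D1 and to costimulate T cells. Its level was 69.4, 47.9, 63.6 and 63.1 CPM in brain CD11c replicates 1 to 4, against 16.8, 15.4, 19.4 and 17.5 CPM in ischemic microglia. Splenic CD11c libraries held 43.2, 43.5, 49.1 and 30.0 CPM and control microglia 16.0, 27.9, 30.3 and 33.7 CPM. Every brain CD11c library lay above every microglia library of either kind, while the brain and splenic CD11c groups overlapped through brain replicate 2 and splenic replicate 3. Sema4a was higher in brain CD11c cells than in ischemic microglia by 1.82 ± 0.20 (adjusted p = 2.28e-06), a 3.53-fold difference. In bulk RNA, fewer cells that express a gene and less of its RNA in each cell cannot be told apart, here and in all results that follow. Against splenic CD11c cells the difference was 0.56 ± 0.19 (adjusted p = 0.0188). It missed the threshold without brain replicate 1 (adjusted p = 0.0624), without splenic replicate 4 (0.0667) and with library totals in place of TMM factors (0.28, adjusted p = 0.252). The threshold was also missed without brain replicates 3 and 4, a pair left out with its levels known. Ischemic microglia were lower than control microglia by a log2 fold change of -0.64 ± 0.20 (adjusted p = 0.0171). These 2 groups overlapped through control replicate 1, and without control replicate 4 the adjusted p was 0.0562.

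Sema4b, a class 4 relative of Sema4a, was highest in splenic CD11c cells and lowest in brain CD11c cells. In the ischemic hemisphere it was low, at 5.77, 3.11, 2.79 and 3.42 CPM in brain CD11c cells and 4.71, 8.16, 7.92 and 4.02 CPM in ischemic microglia, from 101 to 307 counts per library. Splenic CD11c cells held 96.1, 99.2, 102 and 123 CPM and control microglia 41.5, 38.7, 45.7 and 40.7 CPM. All 4 ischemic libraries lay far below all control libraries, and all brain CD11c libraries far below all splenic ones. Ischemic microglia differed from control microglia by -2.75 ± 0.23 (adjusted p = 6.42e-07), a 6.71-fold lower level. Brain CD11c cells differed from splenic CD11c cells by -4.80 ± 0.26 (adjusted p = 2.00e-10), a 27.9-fold lower level. B cell markers were high in the same splenic libraries, and their part in this difference was not tested. Between brain CD11c cells and ischemic microglia the libraries overlapped. The call there (-0.72 ± 0.24, adjusted p = 0.0234) was lost when brain replicate 2, 3 or 4 or ischemic replicate 2 or 3 was left out, with adjusted p of 0.0551 to 0.0940. It was also lost with limma-voom (adjusted p = 0.0512) and with only the 8 libraries fitted (0.118).

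Sema4d (CD100), whose high-affinity receptor is plexin B1 and which also binds plexin B2 and, on lymphoid cells, Cd72, was abundant in every group. Brain CD11c cells held 551, 723, 626 and 602 CPM and ischemic microglia 737, 615, 746 and 832 CPM. Splenic CD11c cells held 371, 352, 370.1 and 261 CPM, and control microglia 458, 441, 420.4 and 427 CPM. Both populations of the ischemic hemisphere lay above both of the other populations in every library. Ischemic microglia exceeded control microglia by 0.75 ± 0.13 (adjusted p = 0.000312), and brain CD11c cells exceeded splenic CD11c cells by 0.89 ± 0.13 (adjusted p = 1.45e-05). Between brain CD11c cells and ischemic microglia the difference was -0.23 ± 0.13 (adjusted p = 0.169) with overlapping libraries.

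**Figure D1:**
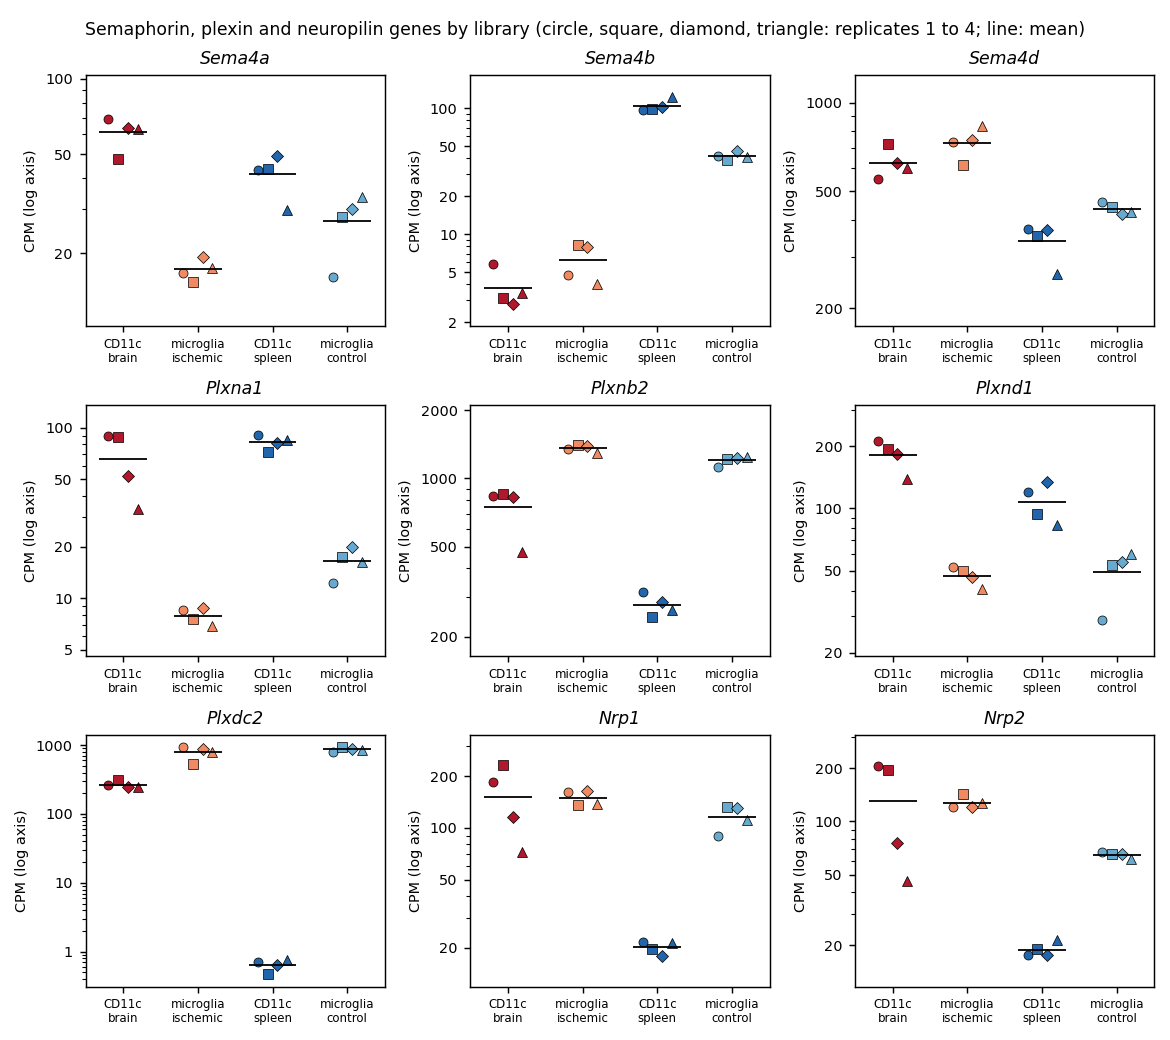
Level of each gene in each library, in CPM on a log axis that differs between panels. Circles, squares, diamonds and triangles are replicates 1 to 4 and lines are group means. Sema4b sat at 2.79 to 8.16 CPM in both populations of the ischemic hemisphere and at 38.7 to 123 CPM elsewhere, and Plxdc2 was below 1 CPM in the spleen.

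Among the plexins, Plxna1 forms receptors for class 3 semaphorins with neuropilins and binds Sema6d, in dendritic cells together with Trem2 and its adaptor Tyrobp. It measured 90.0, 88.0, 51.9 and 33.6 CPM in brain CD11c cells, against 8.50, 7.52, 8.81 and 6.85 CPM in ischemic microglia. The level was 91.0, 72.5, 81.3 and 84.5 CPM in splenic CD11c cells and 12.4, 17.4, 20.0 and 16.3 CPM in control microglia. Both CD11c groups were thus above both microglia groups in every library, and brain replicates 3 and 4 were the lowest CD11c libraries. The difference between brain CD11c cells and ischemic microglia was 3.06 ± 0.26 (adjusted p = 1.67e-07), an 8.32-fold higher level. Ischemic microglia were lower than control microglia by a log2 fold change of -1.06 ± 0.25 (adjusted p = 0.00342), with no overlap. Brain and splenic CD11c cells differed by -0.32 ± 0.24 (adjusted p = 0.245). That value was 0.12 without brain replicates 3 and 4 and -0.98 without brain replicates 1 and 2, pairs left out with these levels known. With library totals it passed the threshold (-0.61, adjusted p = 0.0248).

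Plxnb2, a receptor for class 4 semaphorins that include Sema4c and Sema4d, was the highest of the 3 plexins per kilobase in every group. Brain CD11c cells held 837, 856, 825 and 475 CPM and ischemic microglia 1357, 1412, 1388 and 1301 CPM. In splenic CD11c cells it was at 314, 245, 286 and 263 CPM and in control microglia at 1124, 1213, 1228 and 1243 CPM. The brain CD11c libraries lay between the microglia and the splenic libraries without overlap, and replicate 4 stood below its group. Brain CD11c cells were lower than ischemic microglia by a log2 fold change of -0.87 ± 0.15 (adjusted p = 0.000254), which was -0.70 (adjusted p = 4.66e-05) without replicate 4. That call did not hold under every alternative fit. Brain CD11c cells were higher than splenic CD11c cells by 1.43 ± 0.15 (adjusted p = 5.69e-07), a 2.70-fold difference. A sum of 7 microglia markers, named below, was 2582 to 2895 CPM in brain CD11c cells and 78.2 to 126 CPM in splenic ones. The part of microglia in this difference was not tested. Between ischemic and control microglia the libraries did not overlap, but the difference of 0.18 ± 0.15 had an adjusted p of 0.367 when all 16 libraries shared the spread, and 0.22 with an adjusted p of 0.0349 when only those 8 libraries were fitted.

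Plxnd1, the receptor for Sema3e and a partner of Sema4a, is best known from the patterning of blood vessels. It measured 212, 195, 183 and 139 CPM in brain CD11c cells, against 52.2, 49.7, 46.4 and 40.7 CPM in ischemic microglia. Splenic CD11c cells held 120.2, 94.2, 135 and 82.7 CPM and control microglia 28.8, 53.1, 55.2 and 60.4 CPM. All brain CD11c libraries were above all others. The excess over ischemic microglia was 1.95 ± 0.21 (adjusted p = 1.99e-06), or 3.86-fold, and that over splenic CD11c cells 0.76 ± 0.20 (adjusted p = 0.00399). The excess over splenic cells missed the threshold with library totals (0.47, adjusted p = 0.0607). It was 0.55 and also missed the threshold without brain replicates 1 and 2, a pair left out with its levels known. Ischemic and control microglia differed by -0.06 ± 0.20 (adjusted p = 0.847). Sema3e itself did not pass the filter on low counts, with a mean of 0.111 CPM in brain CD11c cells.

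Plxdc2 encodes a membrane protein with a plexin-like domain. It is not one of the plexins and has been described as a receptor for the secreted factor Serpinf1. Brain CD11c cells held 259.9, 311, 247 and 244 CPM and ischemic microglia 926, 532, 880.3 and 799 CPM. Splenic CD11c cells held 0.697, 0.467, 0.639 and 0.764 CPM, from 22 to 33 counts per library, and control microglia 802, 938, 881 and 846 CPM. The 3 brain populations were therefore far above the spleen in every library. Brain CD11c cells exceeded splenic CD11c cells by 8.69 ± 0.22 (adjusted p = 3.24e-14), a 413-fold difference, and were below ischemic microglia by a log2 fold change of -1.56 ± 0.16 (adjusted p = 7.96e-07), or 2.95-fold. The level of Plxdc2 in brain CD11c cells was 33.9% of that in ischemic microglia. For 7 microglia markers, P2ry12, Tmem119, Sall1, Siglech, Gpr34, Olfml3 and Slc2a5, the same share was 22.8% to 34.0%. Their sum was 2582 to 2895 CPM in brain CD11c cells, 7219 to 10438 CPM in ischemic microglia, 78.2 to 126 CPM in splenic CD11c cells and 14068 to 16747 CPM in control microglia, and their part in the level of Plxdc2 was not tested. Ischemic and control microglia differed by -0.14 ± 0.15 (adjusted p = 0.491), and ischemic replicate 2 was the lowest microglia library for both Plxdc2 and the marker sum.

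Both neuropilins were lower in every splenic library than in every brain library. Nrp1, a co-receptor for Sema3a and VEGF, measured 184, 231, 116 and 72.2 CPM in brain CD11c cells and 161, 137, 163 and 138 CPM in ischemic microglia. It was at 21.6, 19.6, 17.9 and 21.4 CPM in splenic CD11c cells and 89.1, 132, 131 and 111 CPM in control microglia. Nrp2, a co-receptor for Sema3f and for VEGF family members, measured 205, 196, 75.4 and 46.4 CPM in brain CD11c cells and 121, 143, 121 and 127 CPM in ischemic microglia. It was at 17.6, 19.0, 17.5 and 21.6 CPM in splenic CD11c cells and 67.6, 65.4, 65.3 and 61.6 CPM in control microglia. For both genes the 4 brain CD11c libraries straddled the ischemic microglia, replicates 1 and 2 above them and replicates 3 and 4 below. Brain CD11c cells exceeded splenic CD11c cells by 2.91 ± 0.27 for Nrp1 (adjusted p = 1.45e-07) and by 2.79 ± 0.35 for Nrp2 (adjusted p = 4.79e-06), 7.50-fold and 6.91-fold. The microglia marker sum was also higher in brain than in splenic CD11c cells, and the part of microglia in these differences was not tested. Ischemic microglia exceeded control microglia for Nrp2 by 0.98 ± 0.33 (adjusted p = 0.0301), 1.97-fold, with no overlap. That call was lost when any of those 8 libraries was left out of the model of 16 (adjusted p 0.0502 to 0.0713), yet the adjusted p was 4.34e-06 when only the 8 microglia libraries were fitted and the spread of the brain CD11c libraries did not enter. For Nrp1 the ischemic microglia also lay above all control microglia, with a difference of 0.37 ± 0.25 (adjusted p = 0.271) in the model of 16 libraries and 0.41 (adjusted p = 0.0159) in the 8.

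Setting brain CD11c cells against ischemic microglia addressed how CD11c cells differ from microglia of the same hemisphere. Sema4a, Plxna1 and Plxnd1 were higher in brain CD11c cells, and Sema4b, Plxnb2 and Plxdc2 were lower. The 6 called genes of 9 stood against 38.8% of all 16345 genes tested (19.7% higher and 19.1% lower). In 5 of the 9 the libraries of the groups did not overlap, against 31.4% of all genes. The median log2 difference of the 9 genes was 0.01, and that of all genes tested was 0. Sema4d, Nrp1 and Nrp2 were not called, with differences of -0.23 ± 0.13, 0.01 ± 0.25 and 0.03 ± 0.33. Of all called genes, 50.7% were higher in brain CD11c cells, and 62.4% with library totals in place of TMM factors.

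Between ischemic and control microglia, which come from the same mouse line, Sema4d and Nrp2 were higher after ischemia and Sema4a, Sema4b and Plxna1 were lower. These 5 called genes of 9 compare with 35.7% of all genes (17.7% higher and 18.0% lower). The libraries were apart in 6 of the 9, against 43.3% of all genes. Sema4b had the largest difference of the 9, and the median was -0.06, against -0.05 over all genes. Without control replicate 4, only 3 of the 9 were called, Sema4b, Sema4d and Plxna1. Control replicate 1 was the lowest control library for Sema4a, Plxna1, Plxnb2, Plxnd1, Plxdc2 and Nrp1. It was the highest for Sema4d and Nrp2 and lay between the others for Sema4b. Its sum over 6 border macrophage markers was 528 CPM, against 983 to 1061 CPM in the other control libraries. The part of those cells in these levels was not tested. Of all called genes 49.5% were higher after ischemia, and 33.5% with library totals.

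The comparison of brain with splenic CD11c cells addressed how CD11c cells of the ischemic hemisphere differ from those of a lymphoid organ in the same mouse line. Sema4a, Sema4d, Plxnb2, Plxnd1, Plxdc2, Nrp1 and Nrp2 were higher in the brain and Sema4b was lower. The 8 called genes of 9 stood against 64.2% of all genes tested (31.2% higher and 33.0% lower), and the libraries were apart in 7 of the 9, against 55.2% of all genes. The median difference of the 9 genes was 0.89, against -0.04 over all genes. The calls for Sema4a and Plxnd1 carry the exceptions given above, and Plxna1 was not called. Microglia markers were higher in the brain CD11c libraries than in the splenic ones, and the part of microglia in these differences was not tested. Of all called genes 48.6% were higher in the brain, and 34.9% with library totals, under which the median of all genes moved to -0.30.

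**Figure D2:**
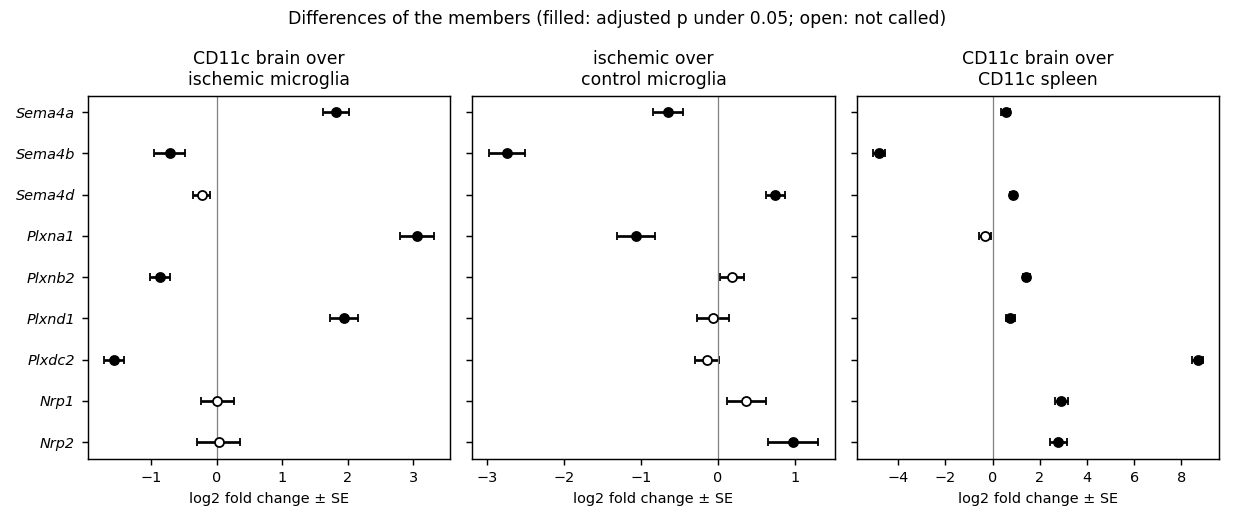
Log2 fold change ± SE of each gene in the 3 comparisons, each with its own scale. Filled points had an adjusted p under 0.05 and open points did not. Plxna1 had the largest excess in brain CD11c cells over ischemic microglia (3.06), Sema4b the largest deficit in ischemic against control microglia (-2.75), and Plxdc2 the largest difference between brain and spleen (8.69).

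The remaining pairs of groups filled in the order of levels. Brain CD11c cells differed from control microglia in 8 of the 9 genes, against 58.9% of all genes (29.3% higher and 29.6% lower, 48.8% apart), with Nrp1 not called (0.38 ± 0.25, adjusted p = 0.204). The call for Nrp2 there (1.01 ± 0.33, adjusted p = 0.0153) came with libraries that overlapped. Without brain replicates 1 and 2, a pair left out with its levels known, the difference was -0.095. Splenic CD11c cells differed from control microglia in all 9, against 68.8% of all genes (37.1% higher and 31.7% lower, 71.0% apart), and ischemic microglia from splenic CD11c cells in all 9, against 68.5% (31.3% higher and 37.2% lower, 71.1% apart). Sema4a and Sema4b were the genes whose neighbours in the order of the 4 groups all differed. For Sema4a the order was brain CD11c cells, splenic CD11c cells, control microglia and ischemic microglia, and for Sema4b splenic CD11c cells, control microglia, ischemic microglia and brain CD11c cells. Neighbours whose difference did not pass were brain CD11c cells and ischemic microglia for Sema4d, brain and splenic CD11c cells for Plxna1, both microglia groups for Plxnb2, Plxnd1 and Plxdc2, brain CD11c cells and ischemic microglia for Nrp1 and Nrp2, and both microglia groups for Nrp1.

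The spread among the brain CD11c libraries was uneven over the 9 genes. Nrp2 was 4.43 times as high in its highest as in its lowest library, Nrp1 3.21 times and Plxna1 2.68 times, while Plxdc2 ranged over 1.27 times and Sema4d over 1.31 times. Plxna1, Plxnb2, Plxnd1, Plxdc2, Nrp1 and Nrp2 were each higher in both of replicates 1 and 2 than in either of replicates 3 and 4. The share of all genes tested that split between these pairs was not computed. The sample titles of replicates 1 and 2 name the eYFP reporter, and those of replicates 3 and 4 do not. Whether the pairs were handled apart was not stated in the sources used here. The sum of 6 border macrophage markers was 727, 589, 184 and 206 CPM in replicates 1 to 4. Mrc1, Pf4, Cbr2 and F13a1 were higher in both of replicates 1 and 2 than in either of replicates 3 and 4, and Lyve1 and Cd163 were lower. The sum of 6 monocyte markers was 1368, 1158, 1056 and 1126 CPM, with 3 genes higher in replicates 1 and 2 by the same rule, 1 lower and 2 mixed. In the other groups the border macrophage sum was 511 to 651 CPM in ischemic microglia, 420.1 to 693 CPM in splenic CD11c cells and 528 to 1061 CPM in control microglia. Conventional dendritic cell markers summed to 552, 784, 1419 and 1393 CPM, and all 9 were lower in replicates 1 and 2. Oligodendrocyte lineage markers summed to 185, 165, 310.2 and 349.9 CPM, with 5 of 6 lower in replicates 1 and 2 and Cspg4 higher. Endothelial markers summed to 33.0, 31.7, 66.6 and 60.3 CPM, with 6 of 8 lower in replicates 1 and 2, Flt1 higher and 1 mixed. The dendritic cell sum was 32.4 to 40.7 CPM in ischemic microglia, 520.1 to 1011 CPM in splenic CD11c cells and 56.7 to 92.8 CPM in control microglia. No border macrophage or conventional dendritic cell marker was at 0 in any group. The 7 microglia markers summed to 2831, 2582, 2895 and 2695 CPM. Of these, 5 (P2ry12, Sall1, Siglech, Gpr34 and Slc2a5) were lower in replicates 1 and 2, Olfml3 was higher and 1 was mixed. The part of any of these cells in the levels of the neuropilins and Plxna1 was not tested. Without replicates 3 and 4, brain CD11c cells exceeded ischemic microglia by 0.47 for Nrp1 and by 0.65 for Nrp2. Without replicates 1 and 2 the differences were -0.65 and -1.05. The direction of both neuropilins against ischemic microglia thus depended on the pair of libraries used. These pairs were left out with the levels of their libraries known, so the signs followed from that choice and no p is given. For Plxna1 every brain CD11c library lay above every ischemic microglia library, so its direction was fixed whichever pair was left out.

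**Figure D3:**
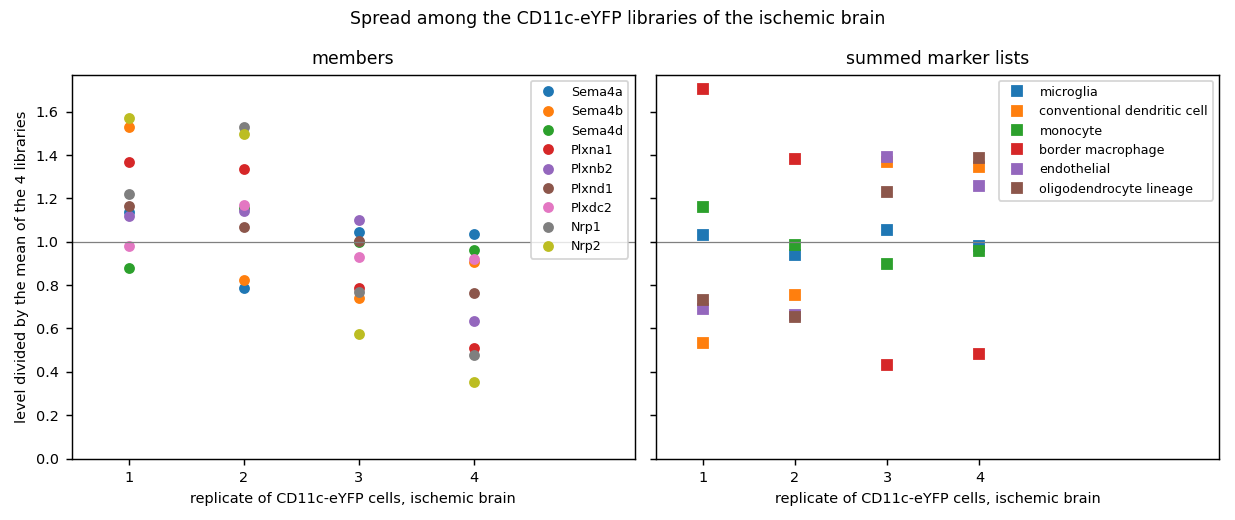
Level in each of the 4 brain CD11c libraries divided by the mean of the 4, for the 9 genes (left) and for 6 summed marker lists (right). Nrp1, Nrp2 and Plxna1 and the border macrophage sum were above 1 in replicates 1 and 2 and below 1 in replicates 3 and 4, whereas the conventional dendritic cell sum was below 1 in replicates 1 and 2. Of the 6 border macrophage markers, 4 were higher in replicates 1 and 2, and 2 (Lyve1 and Cd163) were lower.

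Of the other semaphorins, 14 of 17 were tested, of which 5 were higher and 4 lower in brain CD11c cells than in ischemic microglia. Of all genes tested, 38.8% were called between those groups, 35.7% between ischemic and control microglia and 64.2% between brain and splenic CD11c cells. Sema7a, a membrane-anchored semaphorin that signals through plexin C1 and integrin beta 1, averaged 95.3 CPM in brain CD11c cells, against 1.54 CPM in ischemic microglia (5.95 ± 0.34, adjusted p = 2.50e-09). The class 4 gene Sema4c was lower, at 43.2 CPM in brain CD11c cells against 93.3 CPM in ischemic microglia (-1.11 ± 0.20, adjusted p = 0.000289). So was Sema4g, at 22.4 CPM in brain CD11c cells against 79.9 CPM in ischemic microglia (-1.84 ± 0.32, adjusted p = 0.000294). Sema4f, of the same class, was higher, at 5.10 CPM in brain CD11c cells against 0.0386 CPM in ischemic microglia (6.92 ± 0.51, adjusted p = 2.71e-08). After ischemia, 2 of the 14 were higher in microglia and 2 lower. The larger drop was that of Sema6d, a ligand of plexin A1, at 7.35 CPM in ischemic against 31.3 CPM in control microglia (-2.09 ± 0.26, adjusted p = 2.33e-05). Brain CD11c cells had 7 of the 14 higher and 3 lower than splenic CD11c cells, where Sema6d averaged 3.21 CPM in the brain, against 140 CPM in the spleen (-5.44 ± 0.30, adjusted p = 3.14e-10). Sema6d thus shared with Sema4b the order of its group means, highest in the spleen and lowest in brain CD11c cells.

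All 6 other plexins and the plexin domain gene Plxdc1 were tested. Of these 7 genes, in brain CD11c cells 2 were higher and 4 lower than in ischemic microglia, in ischemic microglia 0 were higher and 3 lower than in controls, and in brain CD11c cells 4 were higher and 2 lower than in the spleen. The called shares of all genes tested were 38.8%, 35.7% and 64.2% in the same order. Plxnc1, the receptor for Sema7a, averaged 156 CPM in brain CD11c cells, against 18.6 CPM in ischemic microglia (3.07 ± 0.35, adjusted p = 4.64e-06) and 357 CPM in splenic CD11c cells (-1.19 ± 0.32, adjusted p = 0.00459). Plxna4, a neuropilin partner, averaged 17.2 CPM in brain CD11c cells and 0.429 CPM in splenic CD11c cells. In microglia it was lower after ischemia, at 57.4 CPM in ischemic and 108 CPM in control microglia (-0.92 ± 0.20, adjusted p = 0.00249). Plxdc1, the relative of Plxdc2, averaged 46.6 CPM in brain CD11c cells, 119 CPM in ischemic microglia, 13.9 CPM in splenic CD11c cells and 123 CPM in control microglia. Plxnb1, the high-affinity receptor of Sema4d, was low in all groups, at 0.818, 1.04, 0.750 and 2.80 CPM in brain CD11c cells, ischemic microglia, splenic CD11c cells and control microglia.

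**Figure D4:**
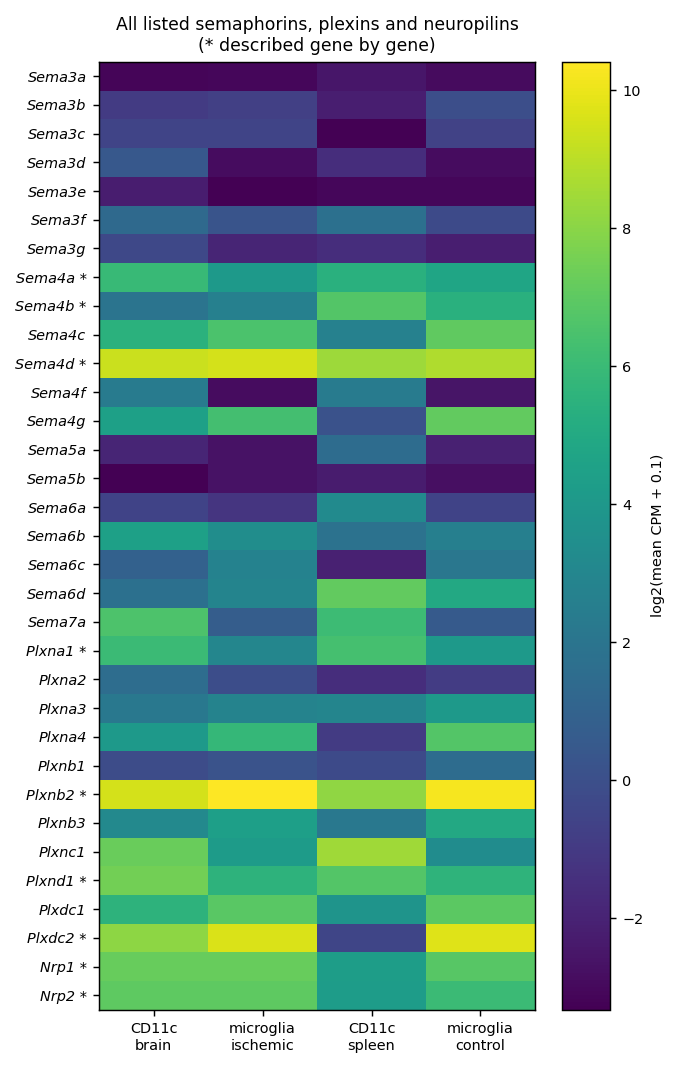
Mean level of 33 semaphorin, plexin, neuropilin and plexin domain genes in the 4 groups, as log2(mean CPM + 0.1). Colours are not corrected for gene length, so a row is to be read across and not against other rows. Sema7a and Plxnc1 were high in both CD11c groups, and Sema4c, Sema4g, Plxna4 and Plxdc2 in both microglia groups.

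Among 16 other receptors and partners, 5 were higher and 3 lower in brain CD11c cells than in ischemic microglia, 5 were higher and 1 lower in ischemic than in control microglia, and 10 were higher and 3 lower in brain than in splenic CD11c cells. Over all genes tested, the called shares were 38.8%, 35.7% and 64.2% in the same order. Cd72, the lymphoid receptor of Sema4d, averaged 472 CPM in brain CD11c cells, against 222 CPM in splenic CD11c cells (1.09 ± 0.19, adjusted p = 8.62e-05). It averaged 258 CPM in ischemic microglia, against 16.6 CPM in control microglia (3.96 ± 0.21, adjusted p = 3.24e-09). Cd72 and Sema4d were thus both called higher in these 2 comparisons. B cell markers were high in the splenic libraries, and their part in the level of Cd72 there was not tested. Trem2, the partner of plexin A1, averaged 576 CPM in brain CD11c cells, against 1203 CPM in ischemic microglia (-1.06 ± 0.14, adjusted p = 1.45e-05) and 0.393 CPM in splenic CD11c cells. Tyrobp, the adaptor of Trem2, averaged 1420.3 CPM in brain CD11c cells, 1710.4 CPM in ischemic microglia, 412 CPM in splenic CD11c cells and 1094 CPM in control microglia. Serpinf1, a described ligand of Plxdc2, averaged 36.5 CPM in ischemic microglia, against 77.0 CPM in control microglia (-1.08 ± 0.25, adjusted p = 0.00321).

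Of the growth factor ligands of neuropilins, 7 of 8 were tested. In brain CD11c cells 3 were higher and 2 lower than in ischemic microglia, in ischemic microglia 1 was higher and 0 lower than in controls, and in brain CD11c cells 5 were higher and 0 lower than in the spleen. In the same order, 38.8%, 35.7% and 64.2% of all genes tested were called. Vegfa averaged 197 CPM in brain CD11c cells, against 21.9 CPM in ischemic microglia (3.17 ± 0.56, adjusted p = 0.000351) and 4.50 CPM in splenic CD11c cells (5.45 ± 0.63, adjusted p = 2.26e-06). Hgf, the hepatocyte growth factor, averaged 28.1 CPM in brain CD11c cells. It averaged 7.54 CPM in ischemic microglia, against 2.19 CPM in control microglia (1.78 ± 0.32, adjusted p = 0.000486). Pdgfb was lower at 181 CPM in brain CD11c cells, against 433 CPM in ischemic microglia (-1.26 ± 0.21, adjusted p = 0.000179).

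Downstream of plexins, 30 signalling genes were tested, of which 4 were higher and 6 lower in brain CD11c cells than in ischemic microglia, 5 higher and 5 lower in ischemic than in control microglia, and 15 higher and 8 lower in brain than in splenic CD11c cells. Across all genes tested, 38.8%, 35.7% and 64.2% were called in the same order. Rnd3, a small GTPase that binds plexins, averaged 13.9 CPM in brain CD11c cells, against 1.08 CPM in ischemic microglia (3.69 ± 0.41, adjusted p = 3.43e-06). Fyn, a kinase that phosphorylates A-type plexins, averaged 129.8 CPM in brain CD11c cells, against 38.7 CPM in ischemic microglia (1.74 ± 0.14, adjusted p = 9.63e-08). The guanine nucleotide exchange factor Arhgef12, which binds B-type plexins, was lower in brain CD11c cells at 19.9 CPM, against 48.3 CPM in ischemic microglia (-1.28 ± 0.15, adjusted p = 4.27e-06). In microglia after ischemia, Mical1, an oxidoreductase that couples plexin A to actin, was higher at 128 CPM, against 56.8 CPM in controls (1.18 ± 0.18, adjusted p = 0.000140), and so was Cfl1, the actin-severing cofilin, at 805 CPM after ischemia against 429.6 CPM in controls (0.91 ± 0.13, adjusted p = 5.98e-05). Mical3 was lower, at 20.5 CPM after ischemia against 39.7 CPM in controls (-0.95 ± 0.17, adjusted p = 0.000502).

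Of the proteases that cut semaphorins, 5 of 6 were tested. In brain CD11c cells 2 were higher and 2 lower than in ischemic microglia, in ischemic microglia 4 were higher and 0 lower than in controls, and in brain CD11c cells all 5 were higher than in the spleen. Called shares over all genes tested were 38.8%, 35.7% and 64.2% in the same order. Furin, which processes class 3 semaphorins, averaged 279 CPM in brain CD11c cells, 216 CPM in ischemic microglia, 49.5 CPM in splenic CD11c cells and 107 CPM in control microglia. Mmp14, which can shed Sema4d, averaged 248 CPM in brain CD11c cells, 102 CPM in ischemic microglia, 5.14 CPM in splenic CD11c cells and 45.8 CPM in control microglia. Adam17, another Sema4d sheddase, was at 445 CPM in ischemic microglia, against 309 CPM in control microglia (0.52 ± 0.12, adjusted p = 0.00391). Sema4d, Furin, Mmp14, Adam10 and Adam17 were all called higher both in ischemic than in control microglia and in brain than in splenic CD11c cells. Mmp14 differed by 1.15 ± 0.24 after ischemia (adjusted p = 0.00142) and by 5.59 ± 0.29 between brain and spleen (adjusted p = 1.25e-10).

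The genes most like each of the 9 were those with the highest Pearson correlation of log2 CPM over the 16 libraries, among tested genes averaging at least 5 CPM. Predicted, clone-named and unnamed genes (such as Gm or Rik symbols) and genes with mt- symbols were left out. The 16 libraries form 4 groups, so the values describe group profiles and carry no p. For Sema4a they were Rtl5 (r = 0.953), Iqgap2 (0.944) and Cdk2ap2 (0.941), and for Plxnd1 Vav3 (0.975), Mfsd6 (0.970) and again Iqgap2 (0.968), a scaffold of the cytoskeleton that averaged 96.9 CPM in brain CD11c cells, 10.8 CPM in ischemic microglia, 39.7 CPM in splenic CD11c cells and 15.2 CPM in control microglia. For Sema4b they were Zfp287 (0.983), Trmt12 (0.981) and Abraxas1 (0.976). Sema4d was most like Cst7 (0.950), Ppt1 (0.948) and Bcl2a1b (0.946), of which Cst7, a cystatin known from reactive microglia, averaged 200.2 CPM in ischemic against 10.2 CPM in control microglia. Plxna1 was most like Clec4n (0.973), Plekhg3 (0.969) and Elk1 (0.966). Plxnb2 was most like Heatr5a (0.990), Sipa1l2 (0.987) and Zdhhc9 (0.987), and Plxdc2 most like Ang (0.999), Pros1 (0.998) and Sparc (0.998). For Nrp1 they were Ctdspl (0.987), Atp6ap1 (0.985) and Npc1 (0.982), and for Nrp2 Pgd (0.984), Fuca2 (0.981) and Gak (0.978). By Spearman correlation 6 of the 9 genes shared none of these 3 neighbours, so the lists depend on the measure of likeness.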

How the data were processed

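The authors' deposited read counts per gene cover 16 libraries of poly(A) RNA, made with a stranded kit from sorted cells per the labels' protocols. Reads were checked with FastQC 0.11.5 and aligned with STAR 2.5.3a to GRCm38, per the submitters' processing notes. The counting program with its strand setting, and the annotation release, were not given in the sources used here. Identifiers were matched to GENCODE release M21, which named 50376 of 50600; 224 had no name. Counts were tested with edgeR 4.0.16 (R 4.3.3): TMM scaling, filterByExpr (16345 genes kept), robust glmQLFit on all 16 libraries with a mean per group, and two-sided quasi-likelihood F tests with Benjamini-Hochberg adjustment over all genes tested at 0.05. Log2 CPM used a prior count of 2. Alternatives were DESeq2 1.42.0, limma-voom (limma 3.58.1), glmTreat against a fold of 1.5, other scalings and filters, fits of 8 libraries and fits without libraries. Scripts were tested on simulated data. No 2 libraries agreed within sampling noise (lowest chi-square per degree of freedom 10.2). The genes, the pathway and marker lists and the alternatives were chosen with earlier results of these data known. Other genes could be named from a list where they were among the 3 called genes with the largest differences in a direction and the higher group averaged at least 5 CPM, or with values. Promoter sequences are from RefSeq (GRCm38.p6); intervals cover spread between libraries only. Some marker genes of the lists are not reported here and are left out of the sums.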

Additional observations from a re-analysis of the deposited data

Results flagged for a closer look

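Plxnb2 in brain CD11c replicate 4 was far from the other libraries of its group, at 475 CPM, against 825 CPM in the nearest and 856 CPM in the farthest of the other 3. The gap to the nearest library was 0.919 of the range of the 4, above the critical value of Dixon's test at 95%. Over the 36 combinations of gene and group looked at, chance flags about 1 in 20, and 1 was found. The same library was also the lowest of its group for Plxna1, Plxnd1, Plxdc2, Nrp1 and Nrp2.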

How the results depend on the processing

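No paired analysis was possible because the groups of one mouse line share fewer than 2 sample numbers in their titles. Brain CD11c replicate 1 and splenic CD11c replicate 4 carry the same number. Whether they came from the same mouse was not stated, and the fit treated them as independent. Of 918 results for single genes of the 9 under an alternative, 847 kept their direction and side of the threshold, 45 lost the call, 8 gained it and 18 changed sign. Testing against a fold of 1.5 left 2555 genes between brain CD11c cells and ischemic microglia, 1499 between ischemic and control microglia, 6482 between brain and splenic CD11c cells and 5314 between brain CD11c cells and control microglia; of the 9 genes it left 1 between the microglia groups and 5 between brain CD11c cells and control microglia. Without 1 library, 3 to 4 of the 9 were called between the microglia groups, and 4611 to 5574 of all genes, against 5834 with all 16 libraries. Over all alternatives, 4 to 8 of the 9 were called between brain CD11c cells and ischemic microglia (2555 to 7156 of all genes). Between brain and splenic CD11c cells 6 to 8 of the 9 were called (6482 to 11322 of all genes). Signs changed mainly for values near 0. For Nrp1 between brain CD11c cells and ischemic microglia the value was -0.012 with DESeq2 size factors and with DESeq2, -0.12 with limma-voom, -0.049 without a filter, -0.25 to 0.24 without 1 library and -0.65 without brain replicates 1 and 2. For Nrp2 there it was -0.23 with limma-voom, -0.028 without a filter, -0.26 to 0.31 without 1 library and -1.05 without brain replicates 1 and 2. Plxna1 between brain and splenic CD11c cells was 0.12 without brain replicates 3 and 4, Plxnd1 between the microglia groups was -0.26 to 0.034 without 1 library, and against control microglia without brain replicates 1 and 2 Nrp1 was -0.30 and Nrp2 -0.095. With library totals the median of all genes was -0.30 between brain and splenic CD11c cells, against -0.04 with TMM factors. The cause of these changes was not tested. Depth limited mainly Plxdc2 in the spleen (22 to 33 counts).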
